A study of Mus musculus with 16 samples.

Results

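The amino acid transporters described here are the mouse genes of the solute carrier families Slc1, Slc3, Slc6, Slc7, Slc36 and Slc43. They were chosen by symbol alone, as rows of the count table named Slc1a, Slc3a, Slc6a, Slc7a, Slc36a or Slc43a with a number. This rule found 52 of 52338 genes, with 7 members from Slc1, 2 from Slc3, 21 from Slc6, 15 from Slc7, 4 from Slc36 and 3 from Slc43. Poly(A) RNA was sequenced from kidneys of C57BL6 mice, all on a high-fat diet, 15 days after vehicle or FAN. The abbreviation FAN is left unexplained in the labels, while columns of the count table are named with the word folic. The 4 groups of 4 libraries were vehicle with ad libitum feeding, vehicle with time-restricted feeding, FAN with ad libitum feeding and FAN with time-restricted feeding. Age, sex and feeding hours are not given in the sources used here. FAN libraries could be tied to a group but not to a sample title, so they carry the number of their column. Nothing states that the libraries of a group came from separate animals, so p-values measure only the spread between these samples.

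Nearly all filtered amino acids are reclaimed by the proximal tubule. Carriers of the brush border, the luminal face of the cell, draw them in with sodium or protons, and exchangers and uniporters of the basolateral face pass them to blood. Several carriers work only as pairs: rBAT, encoded by Slc3a1, partners the light chains of Slc7a9 and Slc7a13, and 4F2hc, encoded by Slc3a2, partners those of Slc7a5, Slc7a6, Slc7a7, Slc7a8 and Slc7a11. Other members serve cell volume (taurine and betaine), creatine uptake, or cells that grow or are under stress.

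Library totals ran from 12450812 to 33976660 counts. The share of counts on mitochondrial genome transcripts was 6.94 to 14.8% in FAN ad libitum libraries, 21.4 to 26.7% in FAN time-restricted and 17.2 to 22.8% in vehicle libraries. Of the tissue's defining markers, 23 proximal tubule genes summed to 30110 to 36290 CPM (counts scaled by TMM to a common library size) in vehicle ad libitum, 34350 to 40920 in vehicle time-restricted, 4543 to 9801 in FAN ad libitum and 20730 to 25520 in FAN time-restricted libraries. A list of 14 macrophage and dendritic cell markers summed to 241.9 to 504, 224 to 331.5, 3553 to 4132 and 1527 to 2820 CPM in the same order. Fibroblast markers, 10 in all, summed to 141 to 289, 130 to 224, 1107 to 2096 and 595 to 1195 CPM. None of these 3 lists had a gene at 0 in a whole group. In bulk tissue, fewer cells of a type and less RNA per cell cannot be told apart, and the part of these shifts in the results below was not tested. Column names also end in a number after the letter S, whose meaning is not stated, in 3 ranges called here sheet number classes. Class 1 holds FAN ad libitum 6 and 7, FAN time-restricted 6 and vehicle 1 and 2 of each regimen, class 2 vehicle 3 and 4, and class 3 the remaining FAN libraries.

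After low counts were removed, 40 of the 52 members were tested. The other 12, among them Slc1a6, Slc1a7, Slc36a3, Slc6a5, Slc7a10 and Slc7a14, had at most 14 counts in any library. Slc6a11, a GABA transporter, had no count in any library.

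Brush border carriers were the most abundant members in kidneys given vehicle. Per kilobase of exon, Slc7a13 was highest in vehicle ad libitum kidneys with a mean of 517 CPM per kilobase. Slc7a13 encodes AGT1, the aspartate, glutamate and cystine exchanger of the straight proximal tubule. The glycine and neutral amino acid carrier Slc6a18 (B0AT3) followed with 183, Slc3a1 with 151 and Slc6a13, a GABA carrier, with 65.4 CPM per kilobase. Below them lay Slc6a6 (taurine) with 31.8 and Slc7a9 (the cystine and dibasic light chain) with 30.8 CPM per kilobase. Slc6a20b (a paralogue of the imino acid carrier Slc6a20a) stood at 30.8, Slc1a1 (the glutamate carrier EAAT3) at 28.2 and Slc6a8 (creatine) at 27.5. In all, 14 members reached 10 CPM per kilobase in vehicle ad libitum kidneys. The order depends on the length used: per kilobase of the longest transcript, Slc1a1 stood at 61.3 in vehicle ad libitum kidneys, and Slc6a18 (57.01) above Slc3a1 (53.9) in FAN ad libitum kidneys. Slc7a13 stayed first in FAN ad libitum kidneys with 68.0 CPM per kilobase, followed by Slc3a1 with 53.9 and Slc6a18 with 53.5, and the heavy chain Slc3a2 (24.9), Slc6a6 (24.9) and Slc6a8 (22.03) came next.

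**Figure D1:**
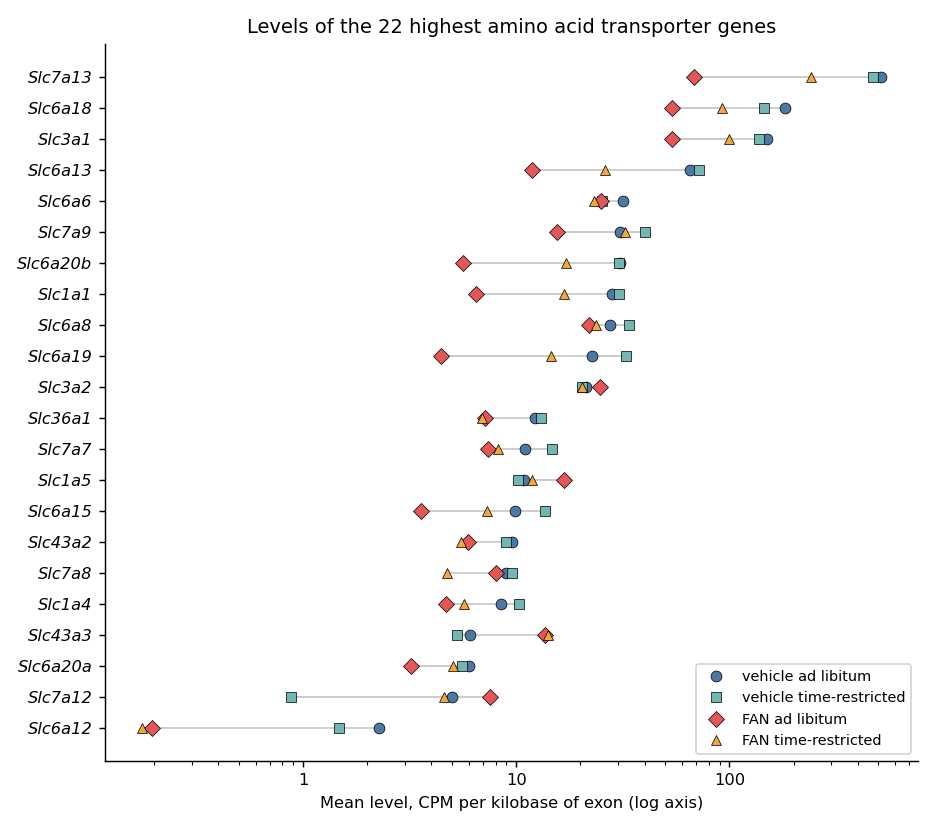
Mean level of the 22 members highest in vehicle ad libitum kidneys, in CPM per kilobase of exon on a log axis, with 1 symbol per group of 4 libraries. Slc7a13 led in every group; its mean was 517 in vehicle ad libitum and 68.0 in FAN ad libitum kidneys.

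The summed level of the 52 members was 4174 ± 97 CPM (SD, n = 4) in vehicle ad libitum, 3997 ± 196 in vehicle time-restricted, 1653 ± 202 in FAN ad libitum and 2521 ± 228 in FAN time-restricted kidneys. The 10 apical carriers made up most of that shift. They summed to 2976 to 3133 CPM in vehicle ad libitum, 2661 to 3056 in vehicle time-restricted, 619 to 896 in FAN ad libitum and 1443 to 1993 CPM in FAN time-restricted libraries, and the FAN groups overlapped neither each other nor the vehicle groups.

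FAN was compared with vehicle under ad libitum feeding first. By edgeR's quasi-likelihood test with Benjamini-Hochberg adjustment over 17731 genes (threshold 0.05), 12 members were higher in FAN, 17 were lower and 11 were not called. That is 72.5% of the tested members, where 60.7% of all tested genes were called, 32.1% higher and 28.6% lower. The members' median log2 change was −0.25, against 0.06 over all genes. FAN and vehicle libraries did not overlap for 23 members, a state found for 54.9% of all genes. Lower calls fell mainly on apical carriers (9 of 10) and on osmolyte, creatine and GABA carriers (3 of 4 tested), and higher calls on cationic uniporters (3 of 4) and carriers linked to growth and stress (3 of 4). The balance depended on the scaling of libraries. With total counts in place of TMM the median of all genes moved to 0.75, and 17 members were higher and 10 lower. Of all 17731 genes, 10821 were then higher and 2072 lower.

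Under time-restricted feeding, 5 members were higher in FAN than in vehicle, 17 were lower and 18 were not called, or 55.0% of members against 43.5% of all genes (24.5% higher, 19.0% lower). The median log2 change was −0.40, against 0.05 over all genes. FAN and vehicle libraries did not overlap for 22 members and for 40.3% of all genes. Of the apical carriers 7 of 10 were lower, and of the osmolyte, creatine and GABA carriers 3 of 4. With sheet number class as a covariate the lower members numbered 8, where 1949 of all 17731 genes were lower. Class 1 holds only FAN time-restricted 6 of its group, so calls within it are listed only among the processing alternatives.

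**Figure D2:**
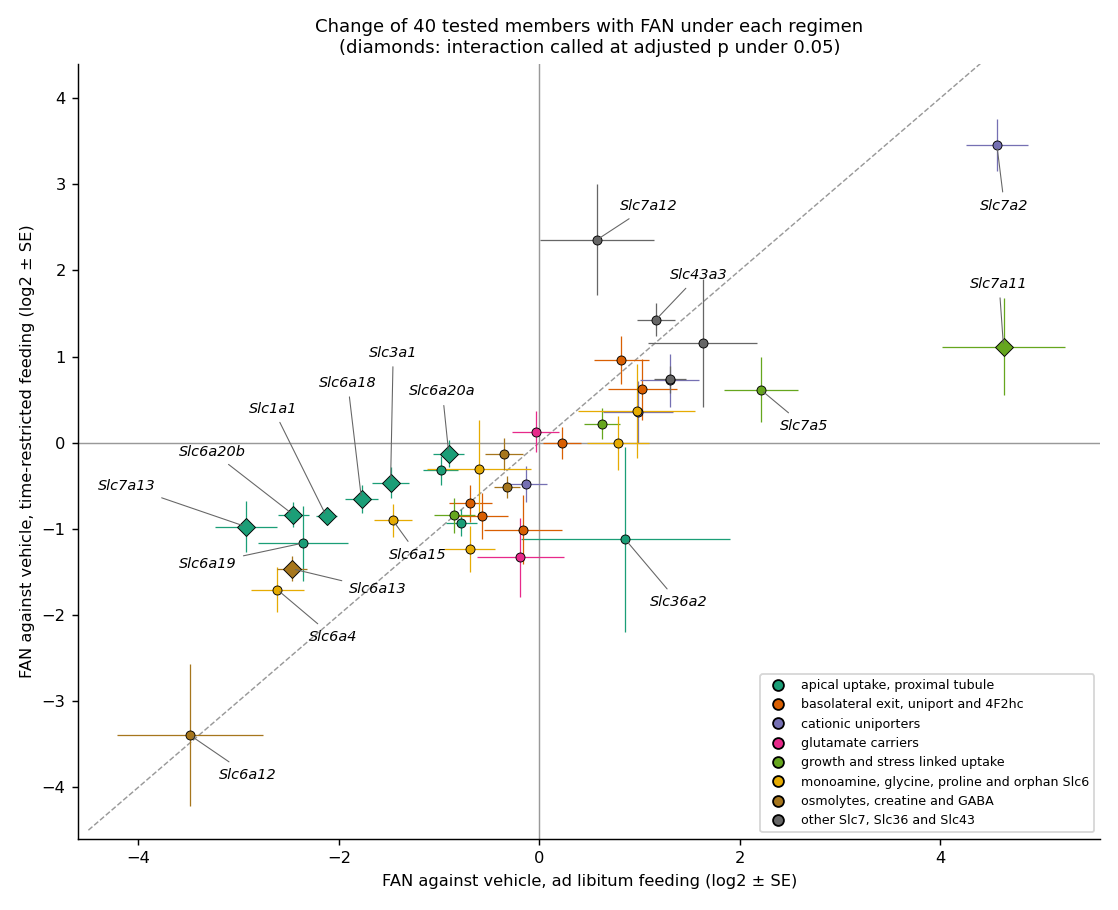
Log2 change of the 40 tested members between FAN and vehicle under ad libitum (x axis) and time-restricted feeding (y axis), with SE bars, colours for the members' roles and a dashed line of equal change. Of the 10 apical carriers 8 lie left of 0 and above the line, as Slc7a13 at −2.93 and −0.97, while Slc36a1 (−0.78 and −0.93) and Slc36a2 (0.86 and −1.12, not called) lie below it, and diamonds mark the 8 members whose changes differed between regimens by the interaction test.

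Among FAN kidneys, 11 members were higher and 8 lower with time-restricted than with ad libitum feeding, and 21 were not called. This was 47.5% of members against 31.8% of all genes (17.9% higher, 13.9% lower), with a median log2 difference of −0.08 for members and −0.02 for all genes. The higher calls were 8 of the 10 apical carriers with Slc6a13, Slc6a15 and Slc6a4. Library scaling mattered again: with total counts the median of all 17731 genes moved to −0.67, with 993 higher and 10503 lower. Of the members, 6 were then higher and 20 lower. The 6 were Slc1a1, Slc6a13, Slc6a19, Slc6a20b, Slc7a9 and Slc7a13, while Slc3a1 (0.23), Slc6a18 (0.15) and Slc6a20a (0.01) kept their sign and lost their call. Lower calls also depended on single libraries, numbering 4 without FAN ad libitum 7, without FAN time-restricted 6 or without FAN time-restricted 10. All-gene lower calls were then 1555, 1771 and 1906 in the same order, against 2458 with every library. Within class 3 no member was called lower, where 689 of all 17731 genes were. Class 1 holds only FAN time-restricted 6 of its group, so calls within it are listed only among the processing alternatives.

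Of the apical carriers, 4 are Slc6 genes at a locus on chromosome 13 and another on chromosome 9. All 4 fell in FAN ad libitum kidneys, though Slc6a20a was not called with total-count scaling (−0.20). Slc6a19 encodes B0AT1, the main brush border carrier of neutral amino acids (GRCm38 chr13:73679745-73704865, minus strand, beside Slc6a18 at chr13:73661752-73678023). Slc6a19 was at 214, 89.1, 81.3 and 69.7 CPM in vehicle ad libitum 1 to 4 and at 254, 91.9, 164 and 143 CPM in vehicle time-restricted 1 to 4. FAN ad libitum 6, 7, 10 and 12 held 29.1, 26.4, 25.4 and 7.78 CPM, and FAN time-restricted 6, 10, 11 and 12 held 66.3, 60.6, 57.0 and 108 CPM. Every FAN ad libitum library lay below every library of the other groups, and vehicle 1 was highest in each vehicle group. The log2 change with FAN was −2.36 ± 0.45 (SE, adjusted p = 3.56e-04) under ad libitum feeding and −1.17 ± 0.44 (adjusted p = 0.0416) under time-restricted feeding. The second call was lost without FAN time-restricted 6, 10 or 11 or vehicle time-restricted 1, 3 or 4, with log2 changes of −1.23 to −0.87. Within FAN, Slc6a19 was higher under time-restricted feeding by 1.72 ± 0.44 (adjusted p = 0.00887).

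Slc6a18, the neighbour of Slc6a19, gave 751 to 874 CPM in vehicle ad libitum, 478 to 809 in vehicle time-restricted, 196 to 259 in FAN ad libitum and 384 to 451 CPM in FAN time-restricted libraries. Its log2 changes with FAN were −1.77 ± 0.16 (adjusted p = 4.94e-08) and −0.66 ± 0.16 (adjusted p = 0.00298) under the respective regimens. The imino acid carrier gene Slc6a20a and its paralogue Slc6a20b lie side by side on chromosome 9 (chr9:123634770-123678885 and chr9:123590800-123632565). Slc6a20b was at 247 to 289 CPM in vehicle ad libitum, 230 to 274 in vehicle time-restricted, 38.6 to 59.8 in FAN ad libitum and 124 to 172 CPM in FAN time-restricted libraries. It fell with FAN by 2.46 ± 0.15 on the log2 scale (adjusted p = 5.37e-10) and by 0.84 ± 0.15 (adjusted p = 1.83e-04). Slc6a20a changed less in value, by −0.90 ± 0.16 (adjusted p = 7.18e-05) under ad libitum and −0.13 ± 0.16 (adjusted p = 0.544) under time-restricted feeding. Per kilobase, the ratio of Slc6a20b to Slc6a20a was 5.17 ± 0.648 (SD, n = 4) in vehicle ad libitum, 5.49 ± 0.468 in vehicle time-restricted, 1.77 ± 0.454 in FAN ad libitum and 3.53 ± 1.09 in FAN time-restricted kidneys, with no overlap between FAN ad libitum and any other group. Sacm1l shares 1800 exon bases with Slc6a20b on the other strand, and the strand setting of the authors' counting is not given.

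B0AT1 needs a partner to reach the brush border, which in kidney is collectrin, encoded by Cltrn. Cltrn fell by 2.17 ± 0.31 on the log2 scale in FAN ad libitum kidneys (adjusted p = 8.79e-06) and was at 1222 ± 328 CPM in FAN time-restricted against 1206 ± 332 CPM in vehicle time-restricted kidneys (log2 change 0.02 ± 0.30, adjusted p = 0.967). Per kilobase, Slc6a19 stood at 0.0277 ± 0.00776 of Cltrn in vehicle ad libitum and 0.0296 ± 0.0185 in FAN ad libitum kidneys (SD, n = 4). Under time-restricted feeding the ratio was 0.0411 ± 0.00878 in vehicle and 0.0184 ± 0.00236 in FAN kidneys. FAN time-restricted libraries (0.0151 to 0.0206) overlapped vehicle ad libitum libraries (0.0195 to 0.0382).

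Apical carriers of cystine, dibasic and acidic amino acids fell as well under ad libitum feeding. Slc7a13 (chr4:19818725-19842218) was at 973, 1130, 1151 and 1177 CPM in vehicle ad libitum and at 875, 979, 1018 and 1182 CPM in vehicle time-restricted 1 to 4. FAN ad libitum 6, 7, 10 and 12 held 104, 83.7, 279 and 116 CPM, and FAN time-restricted 6, 10, 11 and 12 held 553, 459, 348 and 702 CPM. Library 10 stood above the rest of FAN ad libitum, yet below every FAN time-restricted library. The log2 change with FAN was −2.93 ± 0.31 (adjusted p = 3.01e-07) under ad libitum and −0.97 ± 0.29 (adjusted p = 0.012) under time-restricted feeding. Slc1a1 (chr19:28835049-28913960) was at 221 to 241 CPM in vehicle ad libitum, 243 to 255 in vehicle time-restricted, 48.6 to 62.5 in FAN ad libitum and 128 to 155 CPM in FAN time-restricted libraries. It had the smallest adjusted p of the members, 9.88e-11 for a log2 change of −2.12 ± 0.11, and fell by 0.86 ± 0.11 under time-restricted feeding (adjusted p = 4.53e-06).

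The heavy chain Slc3a1 (chr17:85028376-85064236) was at 350, 373, 335 and 312 CPM in vehicle ad libitum 1 to 4 and 290, 259, 334 and 365 CPM in vehicle time-restricted 1 to 4. FAN ad libitum libraries held 151, 120, 132 and 86.1 CPM and FAN time-restricted libraries 211, 203, 178 and 310 CPM. FAN ad libitum lay below all other groups, while FAN time-restricted 12 reached into the vehicle range. Log2 changes were −1.48 ± 0.18 (adjusted p = 1.59e-06) and −0.47 ± 0.18 (adjusted p = 0.0435), and the second was not called without FAN time-restricted 6, 10 or 11 or vehicle time-restricted 1, 3 or 4 (−0.50 to −0.39). Its light chain Slc7a9 was at 82.5 ± 13.5 CPM in vehicle ad libitum, 108 ± 19.7 in vehicle time-restricted and 86.4 ± 13.8 in FAN time-restricted kidneys (SD, n = 4), and at 30.8 to 50.8 CPM in FAN ad libitum libraries, a log2 change of −0.98 ± 0.17 under ad libitum feeding (adjusted p = 8.49e-05; −0.29 and not called with total-count scaling). Relative to Slc3a1 per kilobase, Slc7a13 stood at 3.45 ± 0.465 in vehicle ad libitum, 3.47 ± 0.372 in vehicle time-restricted, 1.28 ± 0.716 in FAN ad libitum and 2.41 ± 0.291 in FAN time-restricted kidneys. Slc7a9 stood at 0.205 ± 0.0341, 0.297 ± 0.0592, 0.291 ± 0.0288 and 0.335 ± 0.0699 in the same order. The ratio of Slc7a13 to Slc3a1 reached at most 2.24 in FAN ad libitum libraries and was at least 2.95 in vehicle ad libitum libraries. On the opposite strand, Prepl shares 601 exon bases with Slc3a1 and 4430402I18Rik 2631 with Slc1a1.

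Hepatocyte nuclear factor 4 alpha, encoded by Hnf4a, is a transcription factor of the proximal tubule, and Hnf4a fell by 1.98 ± 0.16 on the log2 scale in FAN ad libitum kidneys (adjusted p = 9.46e-09) and by 0.82 ± 0.16 in FAN time-restricted kidneys (adjusted p = 3.49e-04). Promoters of 36 members were found in the RefSeq table of build GRCm38.p6. In the 250 bases before the start, searched on both strands, the HNF4 motif CAAAGTCCA was held by 0.384% of 32851 promoters and, among members, by Slc3a1 alone, 39 bases before its start. The stretch is printed because it lies next to a gene that moved with the tubule markers, at chr17:85028278-85028346 on the plus strand, with the motif in capitals. Such a match describes letters and not a bound site.
Slc3a1: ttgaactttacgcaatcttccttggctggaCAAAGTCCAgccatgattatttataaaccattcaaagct

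**Figure D3:**
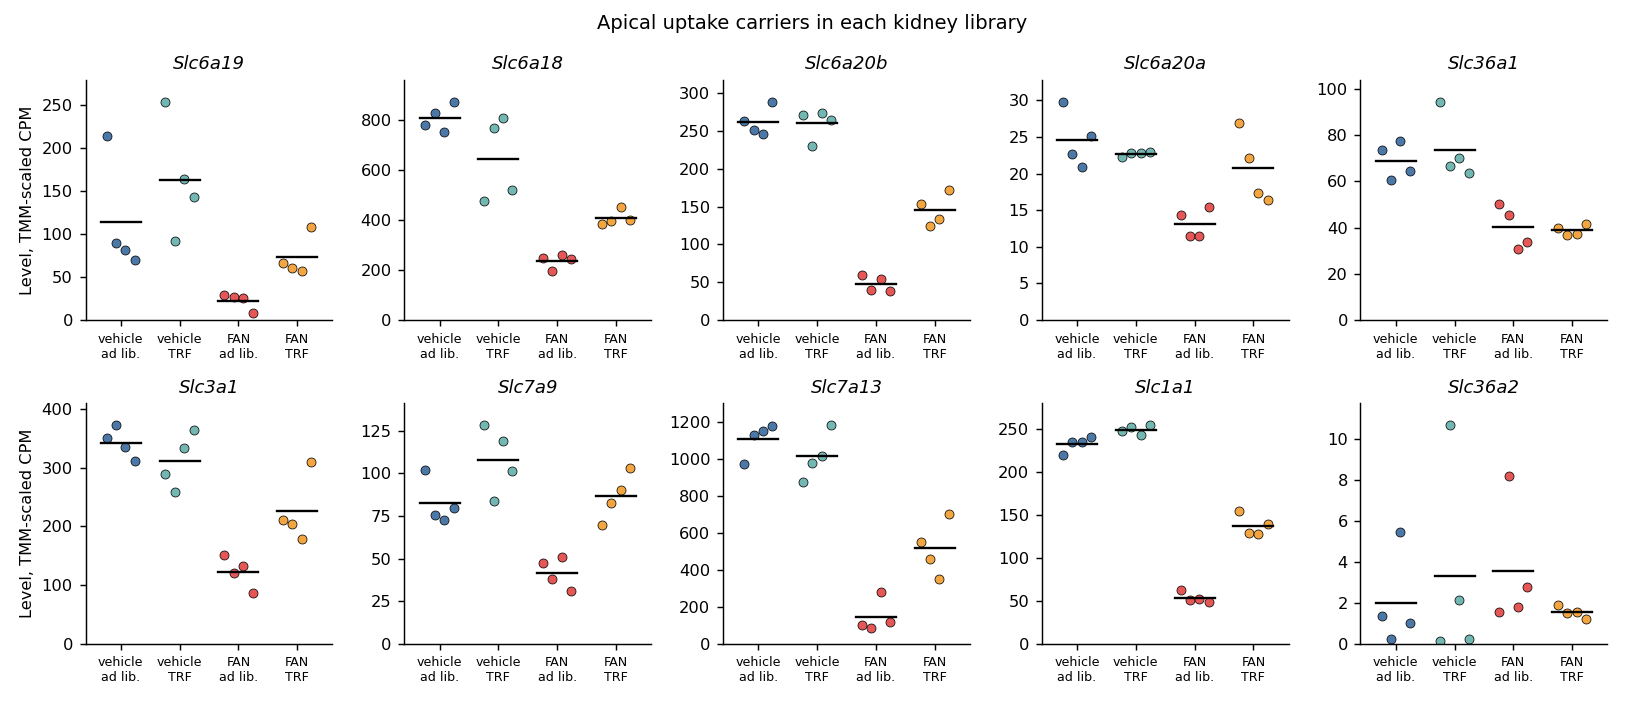
Level of the 10 apical carriers in each of the 16 libraries, in TMM-scaled CPM on linear axes from 0, with a black line at each group's mean. For 9 of the 10, FAN ad libitum libraries lie below both vehicle groups, as for Slc1a1 (48.6 to 62.5 CPM against 221 to 255), while Slc36a2 shows single high libraries.

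The proton-coupled carriers of glycine and proline differed from these. Slc36a1 (PAT1) was at 60.5 to 77.6 CPM in vehicle ad libitum, 63.7 to 94.6 in vehicle time-restricted, 30.9 to 50.3 in FAN ad libitum and 36.7 to 41.4 CPM in FAN time-restricted libraries. It fell by 0.78 ± 0.15 (adjusted p = 2.84e-04) and 0.93 ± 0.16 (adjusted p = 1.20e-04) on the log2 scale, and FAN groups differed by −0.05 ± 0.15 (adjusted p = 0.819). With total-count scaling its ad libitum change was −0.07 (adjusted p = 0.70). Slc36a2 (PAT2) was not called in any comparison and was high in single libraries, at 5.46 CPM in vehicle ad libitum 3, 10.7 in vehicle time-restricted 2 and 8.18 in FAN ad libitum 7, where the other libraries held 0.127 to 2.78 CPM. The same libraries had the highest sums of 6 adipocyte markers in their groups, 509, 914 and 242 CPM, and the part of this in Slc36a2 was not tested.

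Basolateral carriers showed no common direction. Under ad libitum feeding 2 of 6 rose with FAN, 1 fell and 3 were not called, where 32.1% of all genes were higher and 28.6% lower; under time-restricted feeding 1 rose and 2 fell. The heavy chain Slc3a2 was at 75.0 CPM (mean of 4) in vehicle ad libitum and 87.7 CPM in FAN ad libitum kidneys, with a log2 change of 0.23 ± 0.19 (adjusted p = 0.316). It was called higher with total-count scaling (0.94) and within class 1 (0.47). Slc7a6, a light chain for dibasic amino acids, rose by 1.03 ± 0.34 (adjusted p = 0.0156), a call lost without vehicle ad libitum 1 or 4 (0.85 and 0.82). Slc43a1, a uniporter of branched-chain amino acids, was low at 1.39 to 2.77 CPM in vehicle ad libitum and 3.62 to 3.87 CPM in FAN ad libitum libraries, and rose by 0.82 ± 0.28 (adjusted p = 0.0156) and 0.96 ± 0.28 (adjusted p = 0.00902). These calls were lost without vehicle ad libitum 3 (0.66) and without FAN time-restricted 11 (0.66). Slc7a7, the light chain mutated in lysinuric protein intolerance, was not called in the first comparison and fell in the second. It had a log2 change of −0.58 ± 0.26 (adjusted p = 0.0695) and −0.85 ± 0.27 (adjusted p = 0.0165), the first 0.12 with total-count scaling and called without vehicle ad libitum 4 (−0.75) and the second lost without vehicle time-restricted 1 (−0.71). Oxa1l shares 232 exon bases with Slc7a7 on the other strand and had more counts (22652 against 14135 in all).

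FAN ad libitum libraries split for several of these carriers by sheet number class. Slc43a2, another branched-chain uniporter, was at 84.0 and 79.1 CPM in FAN ad libitum 6 and 7 but at 42.8 and 32.8 CPM in 10 and 12, with 49.5 to 60.5 CPM in FAN time-restricted and 84.7 to 105 CPM in vehicle libraries. Slc7a8, the LAT2 light chain of the basolateral face, was at 66.9 and 57.4 CPM against 18.7 and 17.4 CPM, and Slc3a2 at 107.5 and 115 CPM against 64.8 and 63.5 CPM. Between classes 1 and 3 of FAN ad libitum, 8 members were higher in class 1 and none lower (17.4% of all genes were called): Slc43a2 (log2 1.11 ± 0.13, adjusted p = 2.06e-04), Slc7a8 (1.79 ± 0.31, adjusted p = 0.00234), Slc6a9, Slc6a6, Slc3a2, Slc7a5, Slc6a8 and Slc36a1. In the vehicle groups no member and 0.0% of all genes were called between classes 1 and 2. In FAN time-restricted, class 1 is library 6 alone, so no calls between classes are given. The comparison of classes was added after the values were seen, and what the classes stand for was not tested. The feeding contrast of Slc43a2 within FAN had opposite signs in these classes. It was −0.72 within class 1, where FAN time-restricted 6 was the only library of its group. Within class 3 it was 0.60 (adjusted p = 0.00387), and over all libraries −0.11 ± 0.21. Against vehicle, Slc43a2 fell by 0.69 ± 0.21 (adjusted p = 0.00912) and 0.71 ± 0.21 (adjusted p = 0.0121), but with total-count scaling the first change was 0.02. With class as a covariate in edgeR neither change was called, at −0.49 (adjusted p = 0.064) and −0.25 (adjusted p = 0.512).

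**Figure D4:**
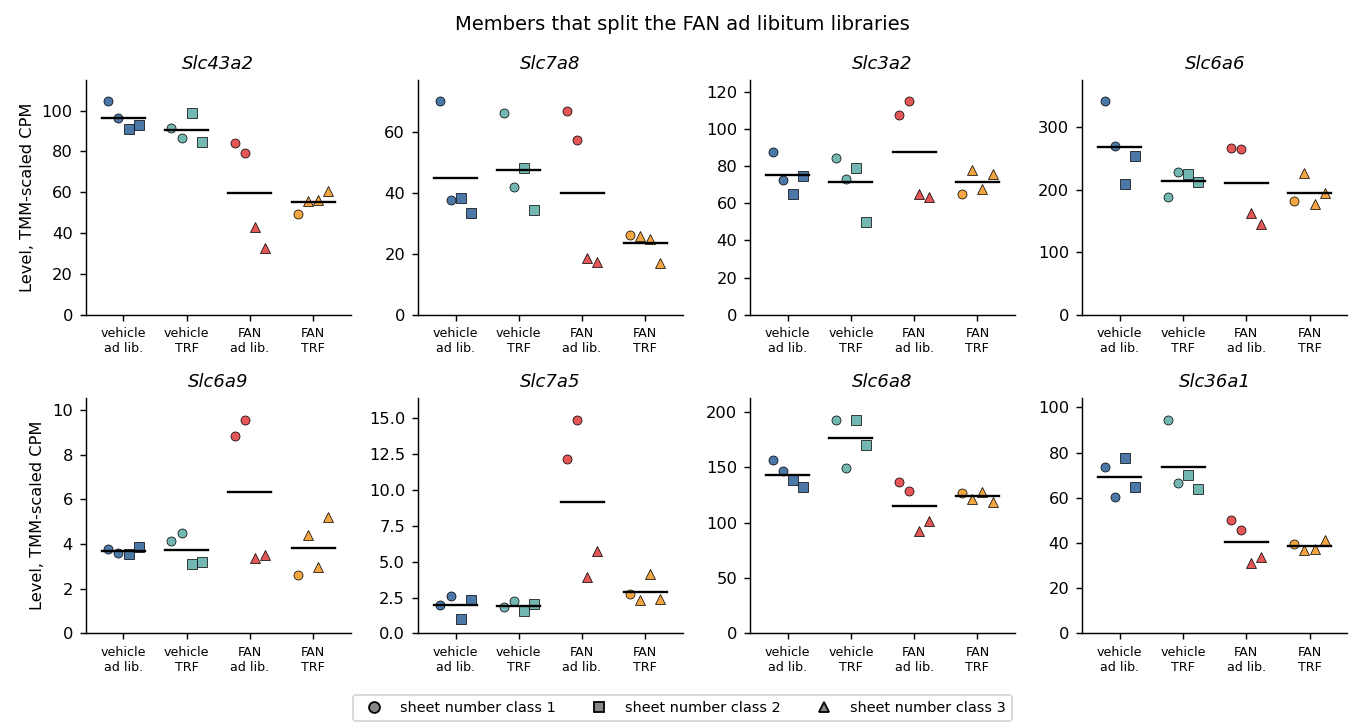
Level of the 8 members called between sheet number classes within FAN ad libitum, in TMM-scaled CPM by library and group, with circles, squares and triangles for classes 1, 2 and 3 and a line at the mean. Circles lie above triangles in FAN ad libitum, as for Slc7a8 (66.9 and 57.4 CPM against 18.7 and 17.4). No member was called between classes 1 and 2 in the vehicle groups, and FAN time-restricted has library 6 alone in class 1.

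Cationic uniporters bring arginine, lysine and ornithine into cells, and 3 of the 4 tested rose with FAN under ad libitum feeding (32.1% of all genes). Slc7a2 (CAT2, chr8:40862396-40922308), the arginine carrier of macrophages and liver among other cells, was at 2.45, 2.66, 2.16 and 1.45 CPM in vehicle ad libitum 1 to 4 and at 2.02 to 2.16 CPM in vehicle time-restricted libraries. FAN ad libitum 6, 7, 10 and 12 held 53.2, 62.5, 37.2 and 57.9 CPM and FAN time-restricted 6, 10, 11 and 12 held 22.9, 18.1, 38.9 and 11.7 CPM. Every FAN library was above every vehicle library, and FAN time-restricted 11 reached the FAN ad libitum range. The log2 change was 4.57 ± 0.31 (adjusted p = 1.56e-09) under ad libitum and 3.46 ± 0.30 (adjusted p = 1.46e-07) under time-restricted feeding, and feeding groups within FAN differed by −1.19 ± 0.26 (adjusted p = 0.00206). All 14 macrophage and dendritic cell markers rose with FAN under ad libitum feeding and 13 under time-restricted feeding, and 12 were lower with time-restricted feeding in FAN; their part in Slc7a2 was not tested. Slc7a1 (CAT1), the widespread cationic carrier, rose by 1.3 ± 0.30 under ad libitum feeding (adjusted p = 0.00104), from 6.81 to 15.8 CPM in vehicle to 18.1 to 37.7 CPM in FAN libraries, and differed with time-restricted feeding in FAN by −1.14 ± 0.30 (adjusted p = 0.00752). Within sheet number class 3 these feeding differences were not called, at −1.03 for Slc7a2 and −0.62 for Slc7a1. Within class 1, with FAN time-restricted 6 alone of its group, they were −1.34 for Slc7a2 and −1.346 for Slc7a1. Slc7a3 (CAT3) was at 0.189 to 0.604 CPM in vehicle ad libitum and 0.827 to 1.05 CPM in FAN ad libitum libraries and rose by 0.98 ± 0.35 (adjusted p = 0.0198), a call lost without vehicle ad libitum 4 (0.76). Slc7a4, an orphan of this branch, was not called, at −0.13 ± 0.21 under ad libitum feeding (0.58 with total-count scaling, adjusted p = 0.0363).

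Of the 4 carriers linked to growth and stress, 3 were lower with time-restricted feeding in FAN kidneys, beside 13.9% of all genes. None was called with feeding in vehicle kidneys, where 0.0% of all genes were. Slc7a11 encodes xCT, the exchanger that imports cystine for glutathione in return for glutamate, and its level was low throughout. Its raw counts summed to 7 in vehicle ad libitum, 23 in vehicle time-restricted, 311 in FAN ad libitum and 48 in FAN time-restricted libraries. In CPM, vehicle ad libitum held 0, 0.140, 0.144 and 0, vehicle time-restricted 0.296, 0.106, 0.539 and 0.0814, FAN ad libitum 1.298, 2.36, 1.81 and 2.27, and FAN time-restricted 0.622, 0.612, 0.393 and 0.743. FAN ad libitum overlapped no other group, while FAN time-restricted overlapped its vehicle group at 1 library, vehicle time-restricted 3. The log2 change with FAN was 4.63 ± 0.61 under ad libitum feeding (adjusted p = 3.57e-06) and 1.11 ± 0.56 under time-restricted feeding (adjusted p = 0.119, called without vehicle time-restricted 3 at 1.74, adjusted p = 0.0352). A count of 0 allows up to 3 counts, or 0.0883 and 0.160 CPM of the raw total in vehicle ad libitum 1 and 4, which covers counting error only. Within FAN the feeding groups differed by −1.73 ± 0.47 (adjusted p = 0.00979).

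Slc7a5 (LAT1), the carrier of large neutral amino acids in growing cells, was at 1.01 to 2.63 CPM in vehicle libraries, at 12.1, 14.9, 3.94 and 5.77 CPM in FAN ad libitum and at 2.72, 2.32, 4.16 and 2.41 CPM in FAN time-restricted libraries. It rose by 2.21 ± 0.37 under ad libitum feeding (adjusted p = 5.06e-05) and had a log2 change of 0.61 ± 0.38 under time-restricted feeding (adjusted p = 0.203). Between FAN groups Slc7a5 differed by −1.66 ± 0.36 (adjusted p = 0.00213), and by −0.70 within class 3 (adjusted p = 0.182). Within class 1, with FAN time-restricted 6 alone of its group, the difference was −2.31. The glutamine carrier Slc1a5 (ASCT2) rose by 0.62 ± 0.18 (adjusted p = 0.00626), with 57.2 to 83.3 CPM in FAN ad libitum and 40.03 to 51.1 CPM in vehicle ad libitum libraries. Its relative Slc1a4 (ASCT1), which carries serine and alanine, fell by 0.85 ± 0.20 (adjusted p = 0.00157) and 0.85 ± 0.21 (adjusted p = 0.00293) under the respective regimens. The first call of Slc1a4 was lost with total-count scaling (−0.14) and within class 1 (−0.33), and the second with class as a covariate (−0.47). The feeding call of Slc1a5 within FAN (−0.50 ± 0.18, adjusted p = 0.0435) was lost without FAN ad libitum 7 or 12 or FAN time-restricted 6, 10 or 12 (−0.52 to −0.39).

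**Figure D5:**
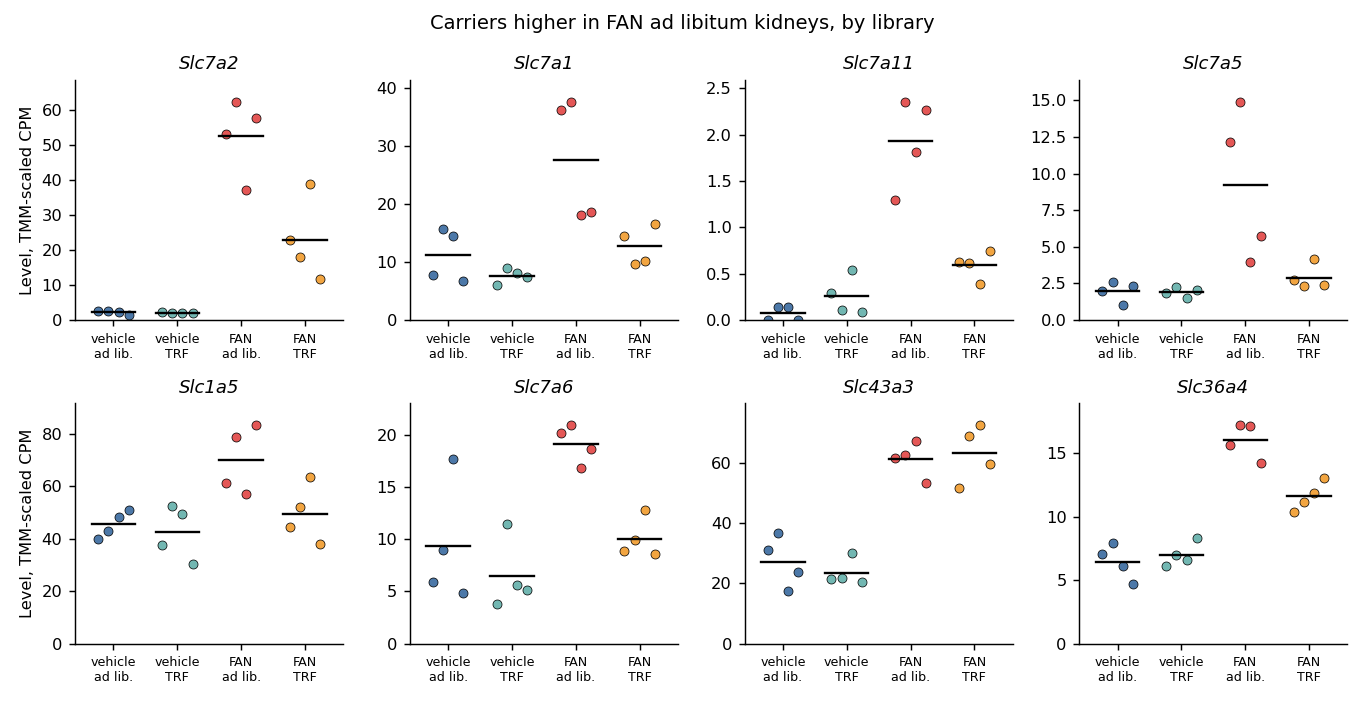
Level of 8 carriers called higher in FAN ad libitum than in vehicle ad libitum kidneys, in TMM-scaled CPM by library on linear axes from 0, with a line at the mean. Slc7a2 stands at 37.2 to 62.5 CPM in FAN ad libitum against 1.45 to 2.66 CPM in vehicle libraries, and Slc43a3 at 51.7 to 72.5 CPM over both FAN groups.

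Amino acid shortage raises Slc7a11 and other carriers through the transcription factor ATF4, which binds the amino acid response element. The motif TGATGNAA was held by 3.45% of the 32851 promoters and, among the 36 members with a promoter, by Slc7a11, Slc7a7 and Slc6a21. Slc7a11 held it at 66 bases before the start and, on the other strand, at 47 bases, within chr3:50443623-50443709 on the minus strand. Slc7a7 held it 141 bases before a start in chr14:54418048-54418115 on the minus strand, and once in a second promoter. Both are shown, motif in capitals, as a member that rose with FAN and a member that was not called higher.
Slc7a11: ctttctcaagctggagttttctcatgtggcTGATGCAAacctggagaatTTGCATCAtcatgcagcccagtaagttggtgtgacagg
Slc7a7: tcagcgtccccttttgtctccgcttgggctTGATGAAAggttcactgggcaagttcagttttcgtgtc
The antioxidant response element core TGANNNNGC, which NRF2 binds, was found in 35.2% of all promoters and in 27 of the 55 promoters of members, and in Slc7a11 1 of its 2 matches overlaps the second amino acid response element. Of 28 tested genes of the ATF4 response, 9 rose and 10 fell with FAN under ad libitum feeding, with a median log2 change of −0.23 against 0.06 over all genes, of which 32.1% rose and 28.6% fell. Aldh18a1 (proline synthesis) rose by 2.34 ± 0.21, Stc2 (a secreted stress glycoprotein) by 2.11 ± 0.27, Shmt2 (mitochondrial serine use) fell by 2.15 ± 0.22 and Atf4 itself fell by 0.34 ± 0.12 (adjusted p = 0.0181).

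Carriers of osmolytes, creatine and GABA fell in part. Slc6a13 was at 143 to 219 CPM in vehicle ad libitum, 169 to 247 in vehicle time-restricted, 29.9 to 38.4 in FAN ad libitum and 70.3 to 81.1 CPM in FAN time-restricted libraries, with no overlap between FAN and vehicle or between the FAN groups. It fell by 2.47 ± 0.15 (adjusted p = 3.87e-10) and 1.46 ± 0.14 (adjusted p = 3.91e-07) on the log2 scale. Its neighbour Slc6a12 (BGT1, the betaine carrier of the medulla) was at 3.63, 5.74, 13.3 and 4.98 CPM in vehicle ad libitum and 0.0773 to 1.39 CPM in FAN ad libitum libraries, a log2 change of −3.49 ± 0.73 (adjusted p = 6.28e-04). Under time-restricted feeding its change was −3.40 ± 0.82 (adjusted p = 0.00341), from 1.52 to 8.18 CPM to 0.118 to 1.49 CPM. Within class 1 the first change of Slc6a12 was not called (−2.38), nor was the second with class as a covariate (−2.69). Within class 1 the second change was −4.62, with FAN time-restricted 6 as the only library of its group. In each group the library highest in Slc6a12 was also the one highest in adipocyte markers, and their part was not tested. A collecting duct list summed to 813 to 1036 CPM in vehicle ad libitum and 273 to 572 CPM in FAN ad libitum libraries, and its part was not tested. The taurine carrier Slc6a6 was not called, with a log2 change of −0.35 ± 0.19 (adjusted p = 0.113; 0.36 with total-count scaling), but was called without FAN ad libitum 6 (−0.49) or 7 (−0.49). The creatine carrier Slc6a8 fell by 0.32 ± 0.13 (adjusted p = 0.0373) and 0.51 ± 0.13 (adjusted p = 0.00355). Neither change was called with class as a covariate (−0.21 and −0.32). With total-count scaling the first change of Slc6a8 turned to 0.38 (adjusted p = 0.0208), and its call ended when any 1 of FAN ad libitum 10 and 12 and vehicle ad libitum 1, 2 and 3 was removed (−0.34 to −0.23).

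Remaining members are described by role; Slc6a7, Slc6a9, Slc6a14, Slc6a15, Slc6a17, Slc7a15, Slc1a2 and Slc1a3 were singled out after their values were seen. Slc6a4, the serotonin transporter, fell by 2.62 ± 0.26 (adjusted p = 1.33e-07) and 1.71 ± 0.26 (adjusted p = 4.95e-05), from 4.10 to 7.69 CPM in vehicle to 0.473 to 1.85 CPM in FAN libraries. Slc6a15, a carrier of branched-chain amino acids and proline, fell by 1.46 ± 0.19 and 0.90 ± 0.19 and was higher with time-restricted feeding in FAN by 1.03 ± 0.19 (adjusted p = 6.10e-04). Slc6a17, a vesicular relative of Slc6a15, fell by 0.69 ± 0.25 (adjusted p = 0.0246) and 1.23 ± 0.27 (adjusted p = 0.00114). The first change was 0.0205 with total-count scaling. Its call ended on removal of FAN ad libitum 10 or 12 or of vehicle ad libitum 2 or 4 (−0.62 to −0.55). With sheet number class as a covariate neither change of Slc6a17 was called (−0.46 and −0.79). Slc43a3, a nucleobase carrier placed in this family by sequence, rose by 1.16 ± 0.19 (adjusted p = 3.29e-05) and 1.43 ± 0.19 (adjusted p = 1.07e-05), with 53.2 to 67.3 CPM in FAN ad libitum and 51.7 to 72.5 in FAN time-restricted libraries against 17.4 to 36.8 CPM in vehicle libraries. Slc36a4, a high-affinity proline and tryptophan carrier, rose by 1.3 ± 0.16 (adjusted p = 1.15e-06) and 0.73 ± 0.16 (adjusted p = 0.00114). Slc6a9, a glycine carrier, rose by 0.79 ± 0.31 (adjusted p = 0.0358), a call that ended on removal of FAN library 6 or 7 or any 1 of the 4 vehicle libraries of that regimen (0.52 to 0.80). Slc7a15 stayed under 2 CPM and rose by 1.63 ± 0.54 (adjusted p = 0.0141; 0.998 and not called without FAN ad libitum 7). The glutamate carriers Slc1a2 and Slc1a3 of astrocytes were low, and Slc1a3 fell under time-restricted feeding by 1.33 ± 0.46 (adjusted p = 0.0255), and was not called without FAN time-restricted 10 (−1.297) or 11 (−1.19) or vehicle time-restricted 2 (−0.56), where it stood at 12.6 CPM. In each of the 4 groups the library with the highest adipocyte marker sum had the highest Slc1a3, and the part of this in Slc1a3 was not tested. Slc6a7 and Slc6a14, carriers of proline and of neutral and cationic amino acids, stayed under 1 CPM and were called in no comparison.

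Feeding alone was compared in vehicle kidneys. By edgeR, 0 of 40 members were called, as were 0.0% of all genes; an unadjusted p under 0.05 was reached by 6 members and 1143 genes, and DESeq2 called 1 member lower, with 41 genes higher and 14 lower. The member was Slc7a12, an orphan light chain singled out here after its values were seen. Slc7a12 was at 15.98, 6.24, 6.99 and 5.55 CPM in vehicle ad libitum 1 to 4 and at 0.677, 1.13, 3.596 and 0.733 CPM in vehicle time-restricted 1 to 4, and these groups did not overlap, as for 4.85% of all genes. The log2 difference was −2.48 ± 0.64 with adjusted p = 0.356 by edgeR, 0.209 to 0.842 over its other edgeR fits, and 0.047 by DESeq2. FAN time-restricted libraries stood at 3.85 to 12.52 CPM, above all vehicle time-restricted libraries, a log2 change of 2.36 ± 0.65 (adjusted p = 0.00816). With sheet number class as a covariate in edgeR this change was 2.17 and not called (adjusted p = 0.0918). FAN ad libitum libraries held 5.96 to 29.2 CPM and were not called against vehicle. Both FAN groups overlapped the vehicle ad libitum libraries.

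Whether the FAN change differed between regimens was tested by the interaction. It was called for 8 of 40 members (20.0%, against 9.16% of all genes), 7 in the higher direction (7.76% of all genes), with a smaller fall under time-restricted feeding, and 1 in the lower (1.4%), with a smaller rise. The 7 were Slc7a13 (1.95 ± 0.41, adjusted p = 0.00572), Slc6a20b (1.62 ± 0.21, adjusted p = 1e-04), Slc1a1 (1.27 ± 0.15, adjusted p = 5.59e-05), Slc6a18 (1.12 ± 0.23), Slc3a1 (1.02 ± 0.26), Slc6a13 (1.005 ± 0.20) and Slc6a20a (0.78 ± 0.22), and the other was Slc7a11 (−3.52 ± 0.87, adjusted p = 0.0151). Slc7a11 lost its call without vehicle time-restricted 3 (−2.89, adjusted p = 0.0664), and Slc6a20a without any 1 of 8 libraries, FAN ad libitum 7, FAN time-restricted 6 or 10, vehicle ad libitum 1 or 4 and vehicle time-restricted 1, 2 or 3 (0.63 to 0.78). With total-count scaling, which moved the median of all genes to −0.57, 3 members (Slc1a1, Slc6a20b and Slc7a13) were called higher and 13 lower. Of all 17731 genes, 504 were then called higher and 6120 lower. Slc6a19 gave 1.19 ± 0.61 (adjusted p = 0.253), Slc7a9 0.66 ± 0.24 (adjusted p = 0.1) and Slc7a5 −1.60 ± 0.53 (adjusted p = 0.0659), none of them called. Slc7a9 was called without FAN ad libitum 10 (0.77, adjusted p = 0.0449). Slc7a5 was called by DESeq2 (−1.64, adjusted p = 0.0239), with total-count scaling (−2.21) and on removal of FAN ad libitum 10 (−1.84) or 12 (−1.76) or FAN time-restricted 11 (−1.84). Within class 1, with FAN time-restricted 6 alone of its group, its interaction was −2.14.

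Related pathway genes were read from lists drawn up for these carriers, to be set against the 32.1% of all genes called higher and 28.6% called lower with FAN under ad libitum feeding. Between the FAN groups, 17.9% of all genes were called higher and 13.9% lower under time restriction. Of 26 tested amino acid and peptide carriers of other families, 4 rose and 10 fell with FAN under ad libitum feeding (median log2 change −0.30), and 5 were higher and 3 lower with time-restricted feeding in FAN. The glutamine carriers Slc38a1 and Slc38a2 rose by 2.06 ± 0.18 (adjusted p = 2.72e-08) and 1.31 ± 0.12 (adjusted p = 5.77e-08), and the mitochondrial ornithine carrier Slc25a15 fell by 1.20 ± 0.12 (adjusted p = 1.49e-07). Of 15 genes of glutathione synthesis and redox control, 3 rose and 9 fell (median −0.91), with Gss at −2.11 ± 0.12, Ggt1 at −2.75 ± 0.16 and Gclm at −1.62 ± 0.15, and 9 were higher with time-restricted feeding in FAN. Gss and Gclm make glutathione and Ggt1 cleaves it at the brush border, while Nfe2l2, which encodes NRF2, rose by 0.51 ± 0.10 (adjusted p = 2.44e-04). Of 8 tested genes of the osmotic response, 1 rose and 3 fell (median −1.20), with Nfat5, the transcription factor of that response, at 0.81 ± 0.16. Those that fell were the chaperone gene Hspa1b (−1.71 ± 0.47), the kinase gene Sgk1 (−1.04 ± 0.34) and, named after its value was seen, the aldose reductase gene Akr1b3 (−2.57 ± 0.82). Of 11 regulators of tubule transport, none rose and 4 fell (median −0.20), among them Hnf4a, Esrra (−1.27 ± 0.13) and Nr1h4 (−1.001 ± 0.16).

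The genes most like 3 members in pattern were ranked by Pearson correlation of log2 CPM over the 16 libraries, which share groups and depth. Slc6a19 was followed by Spp2 (0.970), Cpne4 (0.968), Sdha (0.964), Pik3c2g (0.962) and Maco1 (0.961). Slc7a11 was followed by Hrh2 (0.927), Eda (0.925), Or2y7 (0.923), Fat3 (0.920) and Ndp (0.916), and Slc6a12 by Bsnd (0.959), Slc25a48 (0.959), Fn3krp (0.958), Aldoc (0.955) and Cnnm1 (0.955).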

How the data were processed

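Kidney RNA was measured in 16 libraries of 4 groups, made with a TruSeq Stranded mRNA kit from frozen powder, per the labels' protocols. The deposited values were raw counts per gene in 1 table made by the authors; per the submitters' processing notes, the build was mm10 and the tools included STAR 2.5.3a and edgeR 3.26.7. The counting tool, its annotation and its strand setting are not given in the sources used here.

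From these counts, genes were filtered with filterByExpr (minimum count 10), which left 17731, and scaled by TMM. One 4-group model over all libraries was fitted with edgeR 4.0.16 (R 4.3.3) and tested by its quasi-likelihood test, with Benjamini-Hochberg adjustment over all tested genes and a threshold of 0.05; ± after a log2 value is its SE. CPM values used TMM-scaled totals, log2 CPM for likeness a prior count of 2, and per-kilobase levels the union of GENCODE M21 exons. DESeq2 1.42.0, other scalings and filters, leaving out each library, and sheet number classes were alternatives. The scripts were tested on simulated data. All libraries of a group had distinct counts. Vehicle replicate numbers were not used as pairs in the main fit, and whether they pair the samples could not be told.

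The members and all lists were chosen with earlier results of these data known. Members of the 5 transport roles were named, with the 3 smallest p per direction and comparison, and of each pathway list the 3 called genes with the smallest p under ad libitum feeding and its regulator. Samples' depth ran from 12450812 to 33976660 counts. Protein sequences were not used here. Some genes are not reported here.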

Additional observations from a re-analysis of the deposited data

Results flagged for a closer look

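Among 138 gene-by-group values, 9 had 1 library standing apart from the other 3 by Dixon's criterion, which chance alone meets in about 1 in 20 groups. Slc6a19 was at 214.3 CPM in vehicle ad libitum 1 against 69.71 to 89.11 CPM in the other libraries, and in the same library Slc7a8 was at 70.28 (33.4 to 38.47) and Slc7a12 at 15.98 CPM (5.546 to 6.994). Slc7a13 was at 278.8 CPM in FAN ad libitum 10 against 83.65 to 116.1 CPM. In FAN time-restricted kidneys, Slc43a1 was at 7.46 CPM in library 11 (4.086 to 4.627) and Slc7a8 at 17.09 CPM in library 12 (25.09 to 26.36). In vehicle time-restricted kidneys, Slc1a3 was at 12.64 CPM in library 2 (2.581 to 3.989), and library 3 held Slc43a3 at 29.93 CPM (20.43 to 21.96) and Slc7a12 at 3.596 CPM (0.6769 to 1.133).

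The change with FAN differed between regimens by edgeR's interaction test for 8 members. The log2 differences, time-restricted minus ad libitum, were 1.27 for Slc1a1, 1.62 for Slc6a20b, 1.005 for Slc6a13, 1.12 for Slc6a18, 1.95 for Slc7a13, 1.02 for Slc3a1, 0.78 for Slc6a20a and −3.52 for Slc7a11.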

How the results depend on the processing

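With total-count scaling, members lower in FAN under ad libitum feeding numbered 10, members higher and lower with time-restricted feeding in FAN 6 and 20, and interaction calls 3 higher and 13 lower. Of all 17731 genes, 2072 were lower in the first comparison, and 993 higher and 10503 lower in the second. In the interaction 504 genes were higher and 6120 lower. The same scaling turned the ad libitum FAN change of Slc43a2 to 0.0245, Slc6a17 to 0.0205, Slc6a8 to 0.38, Slc7a4 to 0.58 and Slc1a2 to 0.66, and the feeding difference in FAN of Slc6a8 to −0.54 and Slc43a3 to −0.59. Members lower in FAN under time-restricted feeding numbered 8 with sheet number class as a covariate and 6 within class 1. Feeding in FAN gave 7 higher and 5 lower members within class 1 and 0 lower within class 3, where Slc43a2 turned to 0.60; the interaction gave 2 lower within class 1. DESeq2 called 1 member lower with feeding in vehicle, where 14 of 21189 genes were lower. In the interaction it called 3 members lower, beside 581 of 17292 genes. The cause of these differences was not tested. In class 1, FAN time-restricted 6 is the only library of its group. The class 1 counts given here therefore rest on that single library and cannot be read as replicated results on the members. Leaving out each library gave 9 to 12 higher and 15 to 18 lower members for FAN under ad libitum feeding, 4 to 6 and 14 to 17 under time-restricted feeding, 10 to 11 and 4 to 9 for feeding in FAN, 6 to 9 and 0 to 3 for the interaction, and 0 for feeding in vehicle. Over all genes, leaving out each library gave 5349 to 5647 higher and 4827 to 5104 lower for FAN under ad libitum feeding. Under time-restricted feeding it gave 3731 to 4272 and 2825 to 3514, and for feeding in FAN 2641 to 3535 and 1555 to 2779. The interaction gave 1025 to 1819 higher and 126 to 552 lower genes, and feeding in vehicle 0 to 1 and 0 to 2. With the replicate block in vehicle kidneys 0 members and 0 of 15819 genes were called. Same-numbered vehicle libraries correlated by −0.146 to 0.179 and other pairs by −0.284 to 0.325. Such values cannot tell whether the numbers pair the samples by design. The column numbers of FAN libraries are not tied to sample titles, and pairing by the 3 that both FAN groups share (6, 10 and 12) was not tested. Depth limits Slc7a11 and the 12 untested members. The interaction from only its own groups is the fit already given and was not run again.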
